A study of Homo sapiens with 39 samples.

Results

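HepaRG is an established human liver line of bipotent progenitors, which mature in culture into cells that resemble hepatocytes and cholangiocytes. The cells were exposed to 2-nitrofluorene (2NF) at 10, 50 or 250 µM, dissolved in dimethyl sulfoxide (DMSO), or to DMSO alone. The cultures received 3 daily exposures, and RNA was taken 7 h after the third, 55 h after the start. The 3 libraries of 2NF, out of 39 in the series, were chosen by their labels and were set against the DMSO control of the same exposure set, which is called the matched control. The DMSO controls of 3 other exposure sets, those of cisplatin (CISP), of etoposide (ETP), and of aflatoxin B1 and colchicine (AFB1 and COL), gave the spread between untreated libraries. Each library was made from RNA pooled over the 3 cultures of a group, so that every concentration was represented by 1 library without a replicate.

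2NF is a nitroarene. Nitroreduction turns such compounds into hydroxylamines and arylamines, which cytochromes P450 oxidise further and which acetylation or sulfonation makes reactive towards DNA, and the resulting bulky adducts are substrates of nucleotide excision repair. Planar aromatic compounds can also bind the aryl hydrocarbon receptor (AhR), a transcription factor that switches on the CYP1 family. DNA damage stabilises p53, which induces genes of cell cycle arrest, of cell death and of its own feedback, while most differentiated hepatocytes are outside the cell cycle.

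The expression values were RPM, the reads on 1 amplicon per gene scaled to a common library total, from libraries of 9548911 to 13966635 counts. A log2 ratio is the log2(RPM + 1) of a library minus that of the matched control. On this scale the changes of genes with few reads come out too small. Genes with a mean of at least 20 counts over the 7 libraries were read (12065 genes), and a gene was called at a concentration when it was at least 2-fold from the matched control and outside the range of the 4 DMSO controls. This is a rule of size with no test. The one test was a trend over the steps DMSO, 10, 50 and 250 µM, with the 4 DMSO controls at the lowest step (edgeR quasi-likelihood test, Benjamini-Hochberg adjustment over 13161 genes, threshold 0.05). It has 5 residual degrees of freedom, its spread includes differences between exposure sets, and the p-values measure only the spread between these libraries. Its slopes are in log2 units per 5-fold step of concentration, with standard errors (SE). Values of the other DMSO controls are given in the order CISP, ETP, AFB1 and COL, and values of 2NF in the order 10, 50 and 250 µM.

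Hepatocyte markers were present in the DMSO controls. ALB was at 17792 to 33206 RPM, APOA1 at 2868 to 3467 RPM and TF at 1997 to 2661 RPM. Other secreted proteins of hepatocytes were low, SERPINA1 at 18.4 to 21.3 RPM and AHSG at 1.5 to 6.7 RPM. Of the markers of cholangiocyte-like cells, KRT19 was at 397 to 1233 RPM and SOX9 at 31.5 to 39.1 RPM, while EPCAM had 0 counts in all 7 libraries and KRT7 had 1 count, at 10 µM, where 0 counts allow a level of up to 0.215 to 0.314 RPM (3 counts of the total, covering counting error only).

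Few genes were called at 10 µM and several times as many at 50 and 250 µM. At 10 µM, 81 genes were called higher (0.671% of those read) and 49 lower (0.406%). At 50 µM the counts were 322 higher (2.67%) and 452 lower (3.75%), and at 250 µM 507 higher (4.20%) and 394 lower (3.27%). The same rule, applied to each of the other DMSO controls against the matched control and the range of the remaining ones, called 80 genes in the CISP set (0.663%), 102 in the AFB1 and COL set (0.845%) and 242 in the ETP set (2.01%), in both directions together. The count of 130 genes at 10 µM lay within the range that untreated libraries gave, while the counts of 774 and 901 at 50 and 250 µM lay above it. The counts are not fully alike. The untreated libraries came from other exposure sets and were held against 3 DMSO controls, the libraries of 2NF against 4. Whether 10 µM had an effect is not decided by these counts. The trend test called 695 genes higher (5.28% of those tested) and 726 lower (5.52%). Without the 250 µM library it called 210 higher and 244 lower, and with the matched control alone 320 and 290. The median log2 ratio over all genes read was 0.02 at 10 and 50 µM and 0.06 at 250 µM. These shares and medians over all genes are the background for the counts and medians of each list below.

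**Figure D1:**
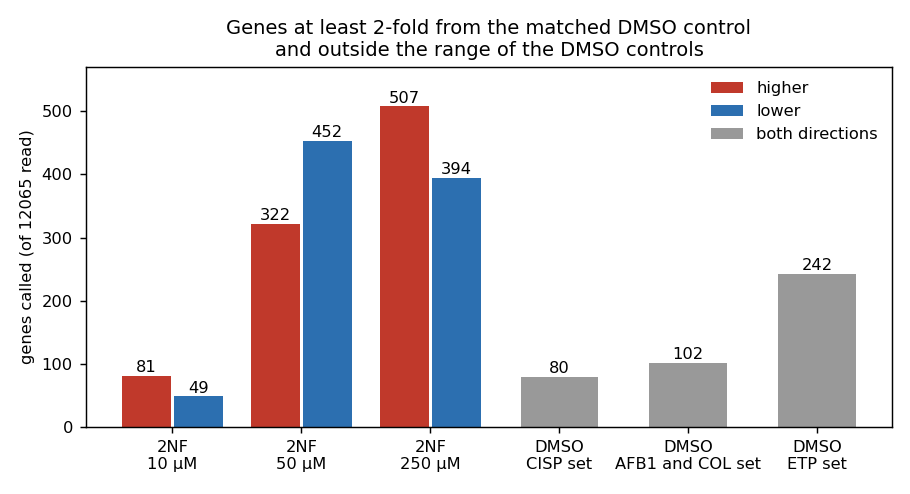
Number of genes called against the matched DMSO control, of 12065 read. Red and blue bars are genes higher and lower in the 3 libraries of 2NF, and grey bars are the genes that the same rule called, in both directions, in the 3 other DMSO controls. In both directions together, the count at 10 µM (130, from 81 and 49) lies within the range of the grey bars (80, 102 and 242). Those at 50 and 250 µM (774 and 901) lie above it.

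Among genes with a mean of at least 100 counts, the 12 highest at 250 µM held 6 genes of chromosome segregation and DNA replication, MKI67, TOP2A, CDK1, PLK1, KIF20A and RRM2, together with HJURP, which loads the centromeric histone. The others were GDF15 and IGFBP1, both secreted proteins of stressed hepatocytes, STC2, a secreted glycoprotein, ANGPTL4, an inhibitor of lipoprotein lipase, and RRAD, a small GTPase. Among the 12 lowest were CYP4B1, CXCL13, ADH4, SLC22A7, HSD17B6, IGFBP5, CYP2C8, ADH1B and FABP1. CYP4B1, a cytochrome P450 that oxidises fatty acids and aromatic amines, fell most. It was at 85.2 RPM in the matched control and at 85.0, 103 and 148 RPM in the other DMSO controls, against 36.2, 4.73 and 2.88 RPM with 2NF (slope -1.90 ± 0.15 (SE), edgeR trend, adjusted p = 9.17e-06). The 3 concentrations lay below all DMSO controls, each lower than the one before.

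**Figure D2:**
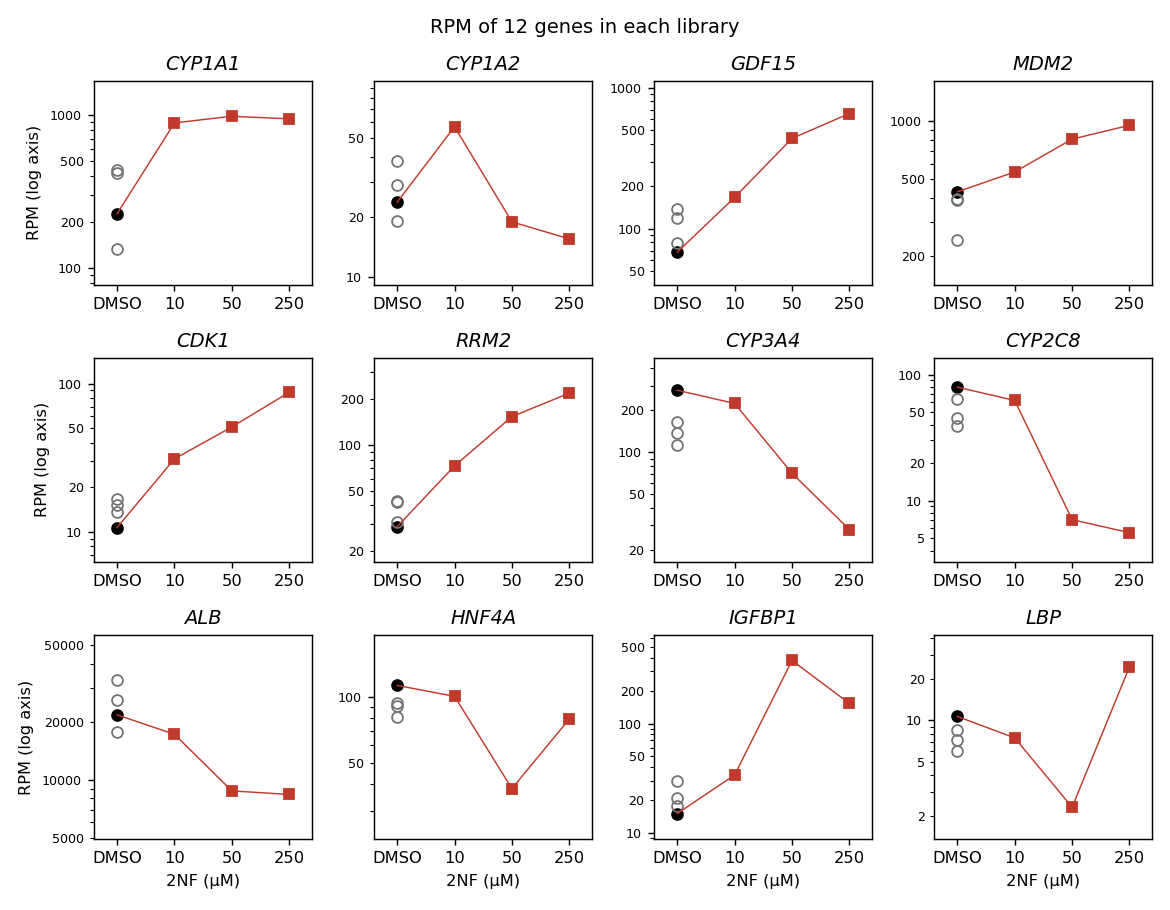
RPM (log axis) of 12 genes in the 7 libraries. The filled circle is the matched DMSO control, the open circles are the other DMSO controls and the squares are the libraries of 2NF. CDK1, RRM2 and GDF15 lie higher at each concentration, CYP1A1 stays level from 10 to 250 µM (886, 980 and 942 RPM), and HNF4A and LBP are lowest at 50 µM.

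Some genes of the AhR battery were called higher at every concentration, including the lowest. Of the 15 genes of the list, all read, 6, 8 and 7 were called higher at 10, 50 and 250 µM, and none lower. Over all genes read, 0.671%, 2.67% and 4.20% were called higher. The median log2 ratios of the list were 0.74, 1.12 and 0.63. The matched control was low for these genes. Set against it, the other DMSO controls had list medians of 0.53 (CISP), 0.59 (ETP) and -0.08 (AFB1 and COL), and with the mean log2 of the 4 DMSO controls as the reference the counts called higher were 3, 6 and 6. In the trend test 6 of 15 were higher, beside 5.28% of all genes, and none was lower.

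CYP1A1, the monooxygenase that is the standard readout of AhR, was at 226 RPM in the matched control and at 414, 435 and 132 RPM in the other DMSO controls, and at 886, 980.2 and 942 RPM with 2NF. All 3 libraries of 2NF lay above all DMSO controls, and they lay close together. Its log2 ratios were 1.97, 2.11 and 2.06. It passed the trend test (slope 0.64 ± 0.17 (SE), edgeR trend, adjusted p = 0.0317), but not without the CISP or the matched control (adjusted p = 0.0503 and 0.0709) or without the 50 or 250 µM library (0.0763 and 0.0574), nor with DESeq2 (0.0605). CYP1B1, a related monooxygenase outside the liver's main set, had 118 RPM in the matched control, 389.9, 369 and 35.3 RPM in the other DMSO controls and 394, 651 and 692 RPM with 2NF. The DMSO controls of CYP1B1 spanned over 3 log2 units, and the trend did not pass (adjusted p = 0.162). CYP1A2, the liver's own CYP1 enzyme, which hydroxylates arylamines, took another course. It was at 23.8 RPM in the matched control, 28.9, 38.6 and 19.2 RPM in the other DMSO controls and 57.1, 18.9 and 15.5 RPM with 2NF. It was above all DMSO controls at 10 µM, just below the lowest of them at 50 µM and further below at 250 µM, with log2 ratios of 1.23, -0.31 and -0.58 (edgeR trend, adjusted p = 0.429).

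Other genes of the battery passed the trend. SERPINB2, an inhibitor of plasminogen activators, was at 8.38 RPM in the matched control and 20.7, 15.0 and 10.8 RPM in the others, and at 26.2, 43.5 and 47.0 RPM with 2NF (slope 0.64 ± 0.11 (SE), edgeR trend, adjusted p = 0.00226). EREG, which encodes the growth factor epiregulin, was at 1.44 to 3.29 RPM in the DMSO controls and at 4.87, 9.11 and 14.4 RPM with 2NF (edgeR trend, adjusted p = 0.000338). ALDH3A1, an aldehyde dehydrogenase, was at 403 to 712 RPM in the DMSO controls and at 1005, 1245 and 1196 RPM with 2NF (edgeR trend, adjusted p = 0.0170). For these 3 genes every library of 2NF lay above every DMSO control. TIPARP, which feeds back on AhR, was highest at 50 µM (84.2, 144 and 104 RPM, against 40.0 to 79.3 RPM in the DMSO controls). Its trend (adjusted p = 0.0329) did not pass without the matched, the AFB1 and COL, or the ETP control, or without the 50 µM library (0.0533 to 0.101). AHRR, the receptor's repressor, and NQO1, a quinone reductase, were not called at any concentration, with log2 ratios of -0.02, -0.37 and -0.69 and of 0.35, 0.28 and -0.30.

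The core of the AhR response element is GCGTG. It was searched on both strands in RefSeq promoters (GRCh38.p14), from 250 bases before to 50 after the gene start. It was present for 8 of the 13 genes of the battery with a promoter in that table (61.5%), beside 40.6% of all 27305 genes. The 8 were CYP1A1, TIPARP, EREG, AHRR, NQO1, AHR, UGT1A6 and NFE2L2. Of these, CYP1A1 and TIPARP were called higher at every concentration and EREG at 50 and 250 µM. AHRR and NQO1 were not called at any concentration. AHR, UGT1A6 and NFE2L2 were not called at 10 or 250 µM, and their calls at 50 µM are not reported here. CYP1A2, CYP2S1 and SERPINB2, each called higher at some concentration, had no match in this window. The 250 bases before the start of CYP1A1, at chr15:74725529-74725778 on the minus strand, are shown because CYP1A1 is the gene on which the AhR readout turns. The capitals mark the only GCGTG in these bases, which begins 57 bases before the start. The search was for the core alone, without its flanking bases, and bases further upstream were not searched. Whether AhR acts through this match was not tested.
CYP1A1: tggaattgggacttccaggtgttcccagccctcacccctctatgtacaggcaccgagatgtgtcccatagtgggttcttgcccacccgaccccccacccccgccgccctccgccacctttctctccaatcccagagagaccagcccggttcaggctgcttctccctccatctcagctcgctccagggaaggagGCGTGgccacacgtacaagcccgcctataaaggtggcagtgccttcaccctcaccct

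Some enzymes that handle nitroarenes and arylamines were called lower at 50 and 250 µM. Of 18 genes read, none was called at 10 µM, 6 were lower at 50 µM and 4 at 250 µM, and none was higher. The shares of all genes called lower were 3.75% at 50 µM and 3.27% at 250 µM. In the trend test 4 of 20 were lower, beside 5.52% of all genes, and the median log2 ratios of the list were 0.04, -0.52 and -0.35. AOX1, aldehyde oxidase, which can reduce nitro groups, was at 965 RPM in the matched control, 1168, 1089 and 1227 RPM in the other DMSO controls and 755, 375 and 321 RPM with 2NF (slope -0.67 ± 0.07 (SE), edgeR trend, adjusted p = 5.85e-05). XDH, xanthine dehydrogenase, another nitroreductase, was at 4.70 to 7.95 RPM in the DMSO controls and 4.01, 1.61 and 2.01 RPM with 2NF (edgeR trend, adjusted p = 0.00705). Both lay below all DMSO controls at all 3 concentrations. The conjugating enzymes GSTA1, a glutathione transferase, and UGT1A9, a glucuronosyltransferase, lay just above all DMSO controls at 10 µM and below all of them at the higher concentrations, GSTA1 from 2348 RPM to 2404, 807 and 581 RPM and UGT1A9 from 288 RPM to 315, 97.2 and 82.8 RPM (edgeR trend, adjusted p = 0.00264 and 0.0139). Neither passed the trend without the 250 µM library (0.148 and 0.313), nor UGT1A9 without the 50 µM library (0.0544). Other genes of the list did not reach the call at any concentration. POR, which passes electrons to cytochromes P450, had log2 ratios of 0.21, -0.36 and -0.03. The N-acetyltransferases NAT1 and NAT2 had 0.04, -0.33 and -0.62 and -0.22, -0.67 and -0.45, and the sulfotransferase SULT1A1 had 0.21, -0.18 and -0.02. EPHX1, an epoxide hydrolase, and AADAC, a deacetylase of arylamides, had 0.21, 0.06 and -0.39 and -0.03, -0.28 and 0.14.

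Most targets of p53 did not reach the 2-fold of the call rule. Of 9 feedback genes, 1 was called higher at 250 µM and 2 passed the trend. Of 19 genes of arrest, 1, 4 and 3 were called higher at 10, 50 and 250 µM and 6 passed. Of 15 genes of cell death read, 0, 2 and 3 were called higher, and 6 of 16 tested passed. Over all genes read, 0.671%, 2.67% and 4.20% were called higher, and 5.28% of those tested passed the trend as higher. None of the 3 lists had a gene called lower or falling in the trend. Their median log2 ratios at 250 µM were 0.31, 0.55 and 0.51.

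GDF15, a secreted cytokine of stressed cells, rose most among them. It was at 68.3 RPM in the matched control and 79.2, 119 and 139 RPM in the other DMSO controls, and at 167, 437 and 657 RPM with 2NF, 9.50-fold at the highest concentration on the log2(RPM + 1) scale (slope 0.91 ± 0.09 (SE), edgeR trend, adjusted p = 7.69e-05). MDM2, the ubiquitin ligase that turns p53 over, was at 431 RPM in the matched control, 397, 241 and 390.3 RPM in the others and 546, 809.7 and 955 RPM with 2NF (edgeR trend, adjusted p = 0.00161). CDKN1A, the cyclin-dependent kinase inhibitor p21, was at 613 RPM in the matched control, 555, 619 and 505 RPM in the others and 696, 1003 and 1039 RPM with 2NF (edgeR trend, adjusted p = 0.00300). For these genes each library of 2NF lay above all DMSO controls. CDKN1A did not reach 2-fold, with log2 ratios of 0.18, 0.71 and 0.76.

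Other targets differed in size. E2F7, a repressor of E2F genes, had log2 ratios of 0.27, 1.20 and 1.71, and FDXR, which carries electrons in mitochondria, had 0.44, 0.93 and 1.22 (edgeR trend, adjusted p = 0.000486 and 0.00407). The death receptor gene FAS was at 48.8 to 60.3 RPM in the DMSO controls and 71.8, 98.2 and 120.3 RPM with 2NF (edgeR trend, adjusted p = 0.000295), and PMAIP1, which encodes NOXA, was at 8.31 to 14.2 RPM in the DMSO controls and 13.5, 21.7 and 37.7 RPM with 2NF (adjusted p = 0.00144). BAX, a pore-forming death effector, had log2 ratios of 0.23, 0.56 and 0.59 (adjusted p = 0.0102). SESN2, which p53 and ATF4 both induce, was highest at 50 µM (74.0, 191 and 131 RPM, against 65.3 to 97.9 RPM in the DMSO controls), as was the death receptor gene TNFRSF10B (169, 313 and 239 RPM, against 145 to 209 RPM), and neither passed the trend (adjusted p = 0.0615 and 0.149). CCNG1, PPM1D and SESN1, also targets of p53, were not called and did not pass (adjusted p = 0.978, 0.184 and 0.461). Without the 250 µM library FDXR, PMAIP1 and BAX no longer passed (0.127, 0.159 and 0.0564).

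The list of nucleotide excision repair also held the bypass polymerases POLH and POLK. Of its 29 genes read, 2, POLH and LIG1, were called higher at 50 and at 250 µM, and none lower. In the trend 3 of 30 passed, all higher. The shares of all genes were 2.67%, 4.20% and 5.28%, and the median log2 ratio of the list at 250 µM was 0.09. The 3 that passed were DDB2, the ultraviolet damage sensor that p53 induces, POLH, and LIG1, the ligase of DNA replication and repair. POLH was at 27.4 to 37.6 RPM in the DMSO controls and 36.6, 56.5 and 56.9 RPM with 2NF (edgeR trend, adjusted p = 0.00964). LIG1 was at 16.0 to 25.1 RPM in the DMSO controls and 26.5, 52.0 and 55.2 RPM with 2NF (edgeR trend, adjusted p = 0.00111). DDB2 had log2 ratios of 0.14, 0.87 and 0.94 (edgeR trend, adjusted p = 0.00451), and DDB2 and POLH did not pass without the 250 µM library (0.0541 and 0.0743). XPC and XPA, which find and check the lesion, had log2 ratios of -0.01, 0.31 and 0.17 and 0.11, 0.15 and -0.22.

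In the list of other DNA repair genes, 5, 7 and 9 of 22 read were called higher at 10, 50 and 250 µM and none lower. In the trend 11 of 24 passed. The shares of all genes were 0.671%, 2.67% and 4.20% called higher and 5.28% passing the trend as higher. FANCD2, the central protein of crosslink repair, was at 2.41 to 4.62 RPM in the DMSO controls and 7.83, 10.4 and 17.4 RPM with 2NF (slope 0.73 ± 0.09 (SE), edgeR trend, adjusted p = 0.000421). BRCA1 and BRCA2, which act in homologous recombination, had log2 ratios of 0.71, 1.64 and 1.86 and 1.09, 1.34 and 2.45 (edgeR trend, adjusted p = 0.00525 and 0.00128). These genes are also expressed mainly in S phase, and CHEK1, a checkpoint kinase, did not pass (0.28, 0.79 and 0.63, adjusted p = 0.115). BRCA1 and BRCA2 did not pass without the 250 µM library (0.0786 and 0.103).

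Nearly every gene of mitosis was higher. Of 20 genes read, 13, 18 and all 20 were called higher at 10, 50 and 250 µM. The median log2 ratios were 1.08, 1.78 and 2.68, beside 0.02, 0.02 and 0.06 over all genes. The matched control was low for these genes, with list medians of 0.35 (CISP), 0.27 (ETP) and 0.02 (AFB1 and COL) for the other DMSO controls against it, and with the mean log2 of the 4 DMSO controls as the reference the counts were 4, 17 and 20. In the trend test 21 of 23 were higher and none lower, and 17 without the 250 µM library. In bulk RNA, more cycling cells and more of these transcripts per cell cannot be told apart.

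CDK1, the kinase that starts mitosis, was at 10.7 RPM in the matched control and 15.2, 16.7 and 13.5 RPM in the other DMSO controls, and at 31.0, 51.0 and 87.3 RPM with 2NF (slope 0.87 ± 0.06 (SE), edgeR trend, adjusted p = 7.95e-06). TOP2A, the topoisomerase that untangles chromosomes, was at 24.8 RPM in the matched control, 38.1, 31.8 and 28.4 RPM in the others and 59.2, 136 and 198 RPM with 2NF (slope 0.92 ± 0.06 (SE), edgeR trend, adjusted p = 5.46e-06). PLK1, a mitotic kinase, was at 7.43 RPM in the matched control, 9.98, 9.68 and 7.45 RPM in the others and 14.8, 30.8 and 65.4 RPM with 2NF (slope 0.93 ± 0.06 (SE), edgeR trend, adjusted p = 4.29e-06). For all 3 genes the libraries of 2NF lay above the DMSO controls at every concentration, each higher than the one before. MKI67, the proliferation marker Ki-67, was at 6.81 to 13.7 RPM in the DMSO controls and 18.1, 28.7 and 63.4 RPM with 2NF, and CCNB1, the cyclin partner of CDK1, at 9.22 to 11.4 RPM and 20.9, 34.3 and 61.3 RPM. KIF20A, a kinesin of cytokinesis, rose mainly between 50 and 250 µM, from 12.1 to 41.7 RPM.

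Many promoters of mitotic genes hold the cell cycle genes homology region, TTTGAA, through which the DREAM complex represses them. This motif was chosen after the values were seen. In the same RefSeq promoter windows, on both strands, it was present for 11 of the 17 genes of mitosis with a promoter in the table (64.7%), among them CDK1, TOP2A, PLK1 and MKI67, beside 18.2% of all 27305 genes and 1 of 23 genes of DNA replication (4.35%), RRM1. CCNB1 and KIF20A had no match in this window. The 250 bases before the start of PLK1, at chr16:23678639-23678888 on the plus strand, are shown because PLK1 was among the 12 highest genes at 250 µM and its promoter holds the motif. The capitals mark the only TTTGAA, which begins 29 bases before the start.
PLK1: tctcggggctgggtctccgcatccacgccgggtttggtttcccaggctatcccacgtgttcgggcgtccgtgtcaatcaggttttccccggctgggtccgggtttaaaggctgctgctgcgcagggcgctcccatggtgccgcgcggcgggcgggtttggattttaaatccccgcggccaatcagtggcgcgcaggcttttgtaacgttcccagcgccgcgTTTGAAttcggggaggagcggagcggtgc

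Most genes of DNA replication were called higher at 250 µM. Of 27 read, 3, 10 and 20 were called higher at 10, 50 and 250 µM, none lower, with median log2 ratios of 0.52, 0.89 and 1.38. The trend test called 24 of 28 higher and none lower, 14 with the matched control alone and 8 without the 250 µM library. RRM2, the subunit of ribonucleotide reductase made in S phase, was at 28.9 RPM in the matched control, 41.9, 42.9 and 30.9 RPM in the others and 72.7, 153 and 219 RPM with 2NF (slope 0.89 ± 0.07 (SE), edgeR trend, adjusted p = 7.95e-06). TYMS, which makes thymidylate, was at 71.2 to 92.6 RPM in the DMSO controls and 129, 225 and 289.6 RPM with 2NF (edgeR trend, adjusted p = 2.24e-05). PCNA, the sliding clamp, was at 54.0 to 64.8 RPM in the DMSO controls and 79.7, 107 and 149 RPM with 2NF (edgeR trend, adjusted p = 9.43e-05). In each of these genes the 3 libraries of 2NF lay above all DMSO controls in order of concentration. CDC6, which licenses origins, and E2F1, the factor that drives these genes, had log2 ratios of 0.76, 1.11 and 1.60 and 0.52, 1.39 and 1.33 (adjusted p = 0.000484 and 0.00241). MCM2, a helicase subunit, passed (adjusted p = 0.0458) but not without the matched, AFB1 and COL or ETP control, nor without the 10 or 250 µM library (0.0518 to 0.508).

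Histone genes of the clusters, whose near-identical copies may share reads, were called higher mainly at 250 µM (0, 3 and 10 of 15 read), and 11 of 17 passed the trend, all higher. HIST1H2BN was at 26.8 to 30.8 RPM in the DMSO controls and 53.8, 54.0 and 97.2 RPM with 2NF (edgeR trend, adjusted p = 0.000115), and HIST1H1C, a linker histone, at 91.0 to 142 RPM and 184, 198 and 301 RPM (adjusted p = 0.00103, 0.0663 without the 250 µM library). HIST1H2AC had log2 ratios of -0.21, -0.58 and 0.25 and did not pass (adjusted p = 0.788).

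**Figure D3:**
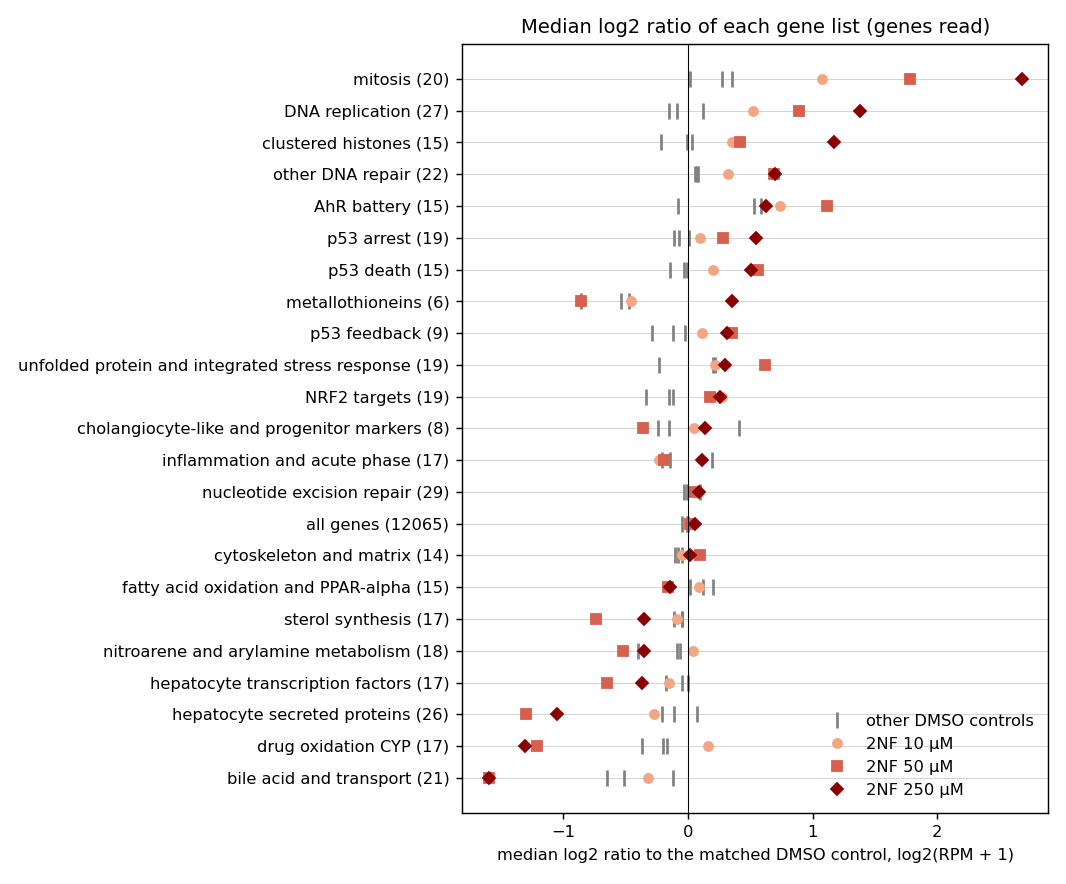
Median log2 ratio to the matched DMSO control (horizontal axis) of the genes read in each list, with their number in brackets. Circles, squares and diamonds are 10, 50 and 250 µM 2NF, and grey strokes are the 3 other DMSO controls. The mitosis list lies at 1.08, 1.78 and 2.68, and the hepatocyte lists lie below their DMSO controls at 50 and 250 µM, while the AhR battery at 10 and 250 µM (0.74 and 0.63) lies close to 2 of its DMSO controls (0.53 and 0.59).

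Most genes of drug oxidation were called lower at 50 and 250 µM, but not at 10 µM. Of 17 cytochromes P450 of the families 2 to 4 that were read, 1, 10 and 10 were called lower at 10, 50 and 250 µM, and none higher. The median log2 ratios were 0.16, -1.21 and -1.31. The trend test called 10 of 18 lower and none higher, but 5 without the 50 µM library and 2 without the 250 µM library. CYP3A4, the main drug-metabolising enzyme of liver, was at 279 RPM in the matched control and 165, 138 and 113 RPM in the other DMSO controls, and at 224, 70.8 and 27.9 RPM with 2NF (slope -0.79 ± 0.19 (SE), edgeR trend, adjusted p = 0.0177). The matched control was the highest of the DMSO controls, and the 50 and 250 µM libraries lay below all of them. CYP2C8, which oxidises many drugs and arachidonic acid, was at 79.4 RPM in the matched control, 45.5, 39.1 and 63.5 RPM in the others and 62.3, 7.05 and 5.56 RPM with 2NF, 12.3-fold lower at 250 µM on the log2(RPM + 1) scale (edgeR trend, adjusted p = 0.00400). CYP2E1, which oxidises ethanol and small solvents, was the gene of this list called at 10 µM. It was at 147 RPM in the matched control, 79.4, 100.2 and 76.3 RPM in the others and 61.0, 5.80 and 15.6 RPM with 2NF, lowest at 50 µM (edgeR trend, adjusted p = 0.00344). CYP4F2, a fatty acid and vitamin hydroxylase, had log2 ratios of -0.60, -2.26 and -2.76 with the smallest adjusted p of the list (edgeR trend, 3.06e-05). CYP2A6, which oxidises nicotine, had -0.31, -1.94 and -3.09 (adjusted p = 0.00205). CYP2B6 was at 140.0, 18.4 and 14.0 RPM with 2NF against 59.9 to 105 RPM in the DMSO controls and did not pass (adjusted p = 0.0606), nor did CYP3A5 (0.41, -0.42 and -0.88, adjusted p = 0.111). Without the 50 µM library CYP3A4 no longer passed (0.0539), and without the 250 µM library neither did CYP3A4, CYP2C8 and CYP2A6 (0.429, 0.145 and 0.122).

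Of 17 transcription factors of hepatocytes read, none was called at 10 µM, 4 were lower at 50 µM and 2 at 250 µM, and 7 of 19 passed the trend, all lower, beside 3.75%, 3.27% and 5.52% of all genes. HNF4A, the master factor of hepatocyte genes, was at 113 RPM in the matched control, 80.7, 94.0 and 90.8 RPM in the others and 101, 38.0 and 79.4 RPM with 2NF. It lay below all DMSO controls at 50 µM, and at 250 µM just below the lowest of them (edgeR trend, adjusted p = 0.248). NR1I3, the constitutive androstane receptor, which drives CYP2B6, was at 3.18 to 6.30 RPM in the DMSO controls and 6.59, 1.16 and 0.383 RPM with 2NF (edgeR trend, adjusted p = 0.0265). NR1H4, the bile acid receptor FXR, was at 34.2 to 55.3 RPM in the DMSO controls and had log2 ratios of -0.40, -1.03 and -1.22 (edgeR trend, adjusted p = 0.00200). CEBPA and PROX1, which maintain hepatocyte identity, had log2 ratios of -0.12, -0.90 and -0.73 and -0.48, -0.89 and -0.70 (adjusted p = 0.00958 and 0.00486). NR1I3 did not pass without the AFB1 and COL control (0.0543), the 50 µM library (0.0975) or the 250 µM library (0.391).

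Plasma proteins made by hepatocytes were lower at 50 µM in 19 of 26 genes read, at 250 µM in 14 and at 10 µM in 1, and none was higher. The median log2 ratios were -0.27, -1.30 and -1.05, and 16 of 26 passed the trend, all lower. ALB, albumin, was at 21742 RPM in the matched control, 33206, 17792 and 26125 RPM in the others and 17239, 8752 and 8384 RPM with 2NF (slope -0.60 ± 0.10 (SE), edgeR trend, adjusted p = 0.00145). TTR, which carries thyroxine and retinol-binding protein, was at 5488 RPM in the matched control, 5059, 5207 and 4802 RPM in the others and 4393, 1607 and 1198 RPM with 2NF (edgeR trend, adjusted p = 9.67e-05). Every library of 2NF lay below the DMSO controls for both genes, by little at 10 µM. TF, transferrin, was at 1686, 478 and 499 RPM with 2NF against 1997 to 2661 RPM in the DMSO controls, and APOA1, the main protein of high-density lipoprotein, had log2 ratios of -0.03, -1.23 and -1.58 (edgeR trend, adjusted p = 0.000240 and 0.000230). FGB, a fibrinogen chain, and SERPINA1, alpha-1 antitrypsin, were lower at 50 µM and back near the DMSO controls at 250 µM. FGB was at 2100.0, 863 and 1664 RPM with 2NF against 1530.1 to 2597 RPM in the DMSO controls, and SERPINA1 at 15.6, 7.95 and 17.4 RPM against 18.4 to 21.3 RPM.

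Genes of bile acid synthesis and transport had the lowest list median at 50 and at 250 µM. Of 21 read, 2, 14 and 13 were called lower at 10, 50 and 250 µM, none higher, with median log2 ratios of -0.32, -1.60 and -1.60. Against the matched control, the other DMSO controls had list medians of -0.51, -0.65 and -0.12. The trend test called 14 of 23 lower and none higher, and 5 without the 250 µM library. CYP8B1, which sets the share of cholic acid, was at 7.34 to 12.0 RPM in the DMSO controls and 7.64, 1.61 and 1.44 RPM with 2NF (edgeR trend, adjusted p = 0.00119). CYP7A1, the rate-limiting enzyme of bile acid synthesis, had 52 to 324 counts in the DMSO controls and 78, 7 and 6 counts with 2NF (adjusted p = 0.0137). SLC10A1, the bile acid importer NTCP, had 28 to 75 counts in the DMSO controls and 37, 1 and 4 counts with 2NF (adjusted p = 0.00827). ABCC2 and ABCG2 had log2 ratios of 0.47, 0.15 and 0.15 and 0.22, 0.08 and -0.05 and did not pass (adjusted p = 0.262 and 0.902), while ABCB1 had 0.17, -0.39 and -0.58 and passed (adjusted p = 0.00599). CYP7A1 did not pass without the 50 or the 250 µM library (0.0611 and 0.168), nor SLC10A1 and ABCB1 without the 250 µM library (0.0973 and 0.158).

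Markers of cholangiocyte-like and progenitor cells did not move one way. Of 8 genes read, 1 was lower at 10 µM, 1 higher and 2 lower at 50 µM, and 2 higher and 2 lower at 250 µM. KRT19, a biliary keratin, was at 626 RPM in the matched control, 397, 455 and 1233 RPM in the others and 199.6, 213 and 199 RPM with 2NF (edgeR trend, adjusted p = 0.0250). SOX9, a biliary transcription factor, was at 31.5 to 39.1 RPM in the DMSO controls and 22.1, 16.0 and 17.6 RPM with 2NF (adjusted p = 0.00211). All libraries of 2NF lay below all DMSO controls for both genes, KRT19 already to its full extent at 10 µM. SPP1, osteopontin, lay above all DMSO controls (76.0, 76.7 and 101 RPM against 32.2 to 72.3 RPM), and CD44, an adhesion receptor, was at 11.7, 20.5 and 20.8 RPM against 7.04 to 16.7 RPM (adjusted p = 0.0483 and 0.0754). KRT19 did not pass without the 50 or the 250 µM library (0.0732 and 0.0957), and SPP1 did not pass without any one of the libraries other than the AFB1 and COL control (0.05 to 0.288). The part of a changed mix of cells in the hepatocyte lists was not tested.

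Several genes of the integrated stress response had their highest values at 50 µM. In the list of that response and of the unfolded protein response, 0, 9 and 8 of 19 genes read were called higher at 10, 50 and 250 µM, none lower, and 7 of 20 passed the trend. TRIB3, a pseudokinase that ATF4 induces, was at 26.1 RPM in the matched control, 33.1, 30.2 and 21.3 RPM in the others and 34.4, 114 and 60.6 RPM with 2NF (edgeR trend, adjusted p = 0.0119). ASNS, asparagine synthetase, was at 13.4 to 29.6 RPM in the DMSO controls and 27.4, 73.9 and 37.9 RPM with 2NF. CHAC1, which degrades glutathione, was at 1.43 to 9.73 RPM in the DMSO controls and 3.73, 22.9 and 9.78 RPM with 2NF. The 50 µM library held the highest value of all 7 for these genes, and for CHAC1 the 250 µM library was close to 2 of the DMSO controls (adjusted p = 0.285). The amino acid transporter subunit SLC3A2 was at 187 to 278 RPM in the DMSO controls and 324, 667 and 538 RPM with 2NF (edgeR trend, adjusted p = 0.00263). HSPA5, the chaperone BiP and the classical marker of the unfolded protein response, had log2 ratios of 0.22, 0.19 and 0.30 (adjusted p = 0.710). ATF3 was at 22.1, 53.5 and 60.3 RPM with 2NF, but the DMSO controls ran from 10.2 to 52.9 RPM (adjusted p = 0.265). ASNS passed (adjusted p = 0.0482), but not with DESeq2 (0.102) or without the matched, AFB1 and COL or ETP control or the 10 or 50 µM library (0.0579 to 0.148).

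The secreted proteins IGFBP1 and STC2, both chosen by the size of their change at 250 µM, had the same course. IGFBP1, which binds insulin-like growth factors, was at 15.1 RPM in the matched control, 17.7, 20.8 and 29.9 RPM in the others and 33.9, 376 and 152 RPM with 2NF (slope 1.45 ± 0.24 (SE), edgeR trend, adjusted p = 0.00169). STC2 was at 1.99 RPM in the matched control, 10.8, 10.2 and 2.79 RPM in the others and 11.5, 44.4 and 25.5 RPM with 2NF (adjusted p = 0.0230, 0.0712 without the 50 µM library and 0.0552 with DESeq2). For STC2 the 10 µM library lay close to 2 of the DMSO controls.

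Of 19 NRF2 targets read, 2, 2 and 3 were called higher at 10, 50 and 250 µM and none lower. In the trend 6 of 20 passed, all higher. The shares of all genes were 0.671%, 2.67% and 4.20% called higher and 5.28% passing the trend as higher. SLC7A11, the cystine importer, was at 88.6 RPM in the matched control, 89.3, 75.3 and 47.6 RPM in the others and 195, 375 and 391 RPM with 2NF (slope 0.90 ± 0.10 (SE), edgeR trend, adjusted p = 0.000193). HMOX1, heme oxygenase, was at 18.7 to 25.0 RPM in the DMSO controls and 40.6, 95.9 and 56.5 RPM with 2NF (adjusted p = 0.00378), and GCLM, of glutathione synthesis, at 155 to 301 RPM and 448, 485 and 510.1 RPM (adjusted p = 0.0107). SLC7A11 and HMOX1, which ATF4 can also induce, and GCLM lay above all DMSO controls at every concentration. GCLM did not reach 2-fold and was not called. AKR1B10 and SRXN1, also of this list, did not pass (edgeR trend, adjusted p = 0.276 and 0.0525). Their log2 ratios were 0.49, 0.36 and 0.24 and 0.72, 0.90 and 1.02. FTH1, the ferritin heavy chain, had log2 ratios of 0.39, 0.61 and 0.65 (adjusted p = 0.0119).

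The 50 and the 250 µM libraries differed in some genes of the acute phase and of inflammation. Both were set against the same matched control, and the values are given side by side. LBP, the lipopolysaccharide-binding protein, was the 1 gene called in opposite directions. It was at 10.7 RPM in the matched control, 7.18, 5.98 and 8.45 RPM in the others and 7.45, 2.32 and 24.6 RPM with 2NF, below all DMSO controls at 50 µM and above all of them at 250 µM. The acute-phase genes SAA2 and CRP were lowest at 50 µM, SAA2 at 278, 70.2 and 283 RPM against 200.1 to 539 RPM in the DMSO controls and CRP at 16.5, 2.14 and 10.1 RPM against 13.4 to 57.2 RPM. The NF-kappaB targets ICAM1, an adhesion molecule, and TNFAIP3, the feedback inhibitor A20, were within the DMSO controls at 10 and 50 µM and above them at 250 µM. ICAM1 was at 18.2, 17.1 and 55.6 RPM against 10.3 to 22.2 RPM in the DMSO controls, and TNFAIP3 at 19.2, 14.6 and 51.8 RPM against 13.8 to 26.2 RPM. ICAM1 passed the trend (edgeR trend, adjusted p = 0.0438), but not without the CISP or ETP control or the 250 µM library (0.066 to 0.931), and its slope without that library was -0.05. The chemokine CCL20 was at 14.5, 26.0 and 40.5 RPM against 8.48 to 18.5 RPM (edgeR trend, adjusted p = 0.00424, 0.194 without the 250 µM library). NFKBIA and CXCL2, which NF-kappaB also induces, were not called, with log2 ratios of -0.23, -0.44 and -0.32 and -0.11, 0.21 and 0.55. In all, 1 of 17 genes read of the list of inflammation and acute phase was higher and 4 were lower at 50 µM. At 250 µM, 3 were higher and 1 lower. Over all genes read, 2.67% were higher and 3.75% lower at 50 µM, and 4.20% and 3.27% at 250 µM. The trend called 3 of 18 higher and 1 lower, beside 5.28% and 5.52% of all genes.

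Metallothioneins, whose near-identical copies may share reads, had median log2 ratios of -0.46, -0.86 and 0.35, and the other DMSO controls had -0.54, -0.86 and -0.47 against the same matched control. MT1E was at 597 RPM in the matched control, 453, 231 and 371 RPM in the others and 302, 172 and 854 RPM with 2NF, and MT2A at 4550.0 RPM, 2805, 2639 and 2915 RPM and 3613, 2952 and 6393 RPM. The matched control was the highest of the DMSO controls for both genes, and the 250 µM library lay above it. At 50 µM, MT1E lay below all DMSO controls and MT2A within them. None of the 7 genes tested passed the trend, and 1 of 6 read was called, MT1E at 50 µM.

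Among the 507 genes called higher at 250 µM, 42 had a larger log2 ratio at 50 µM than at 250 µM. Among the 394 called lower, 146 were lower at 50 µM than at 250 µM. These genes were chosen at 250 µM, which favours a larger ratio there. The 6 genes with the largest rise among those called at 50 but not at 250 µM were TNFRSF9, IER3, SLC1A4, SESN2, ZIC2 and SH3BP4. Of these, SLC1A4, an amino acid transporter, was at 16.1, 42.0 and 19.4 RPM with 2NF against 13.1 to 27.6 RPM in the DMSO controls, and TNFRSF9, a co-stimulatory receptor, at 7.26, 21.4 and 10.4 RPM against 5.34 to 7.95 RPM. For SLC1A4 the 50 µM library alone lay above all DMSO controls, and for TNFRSF9 the 250 µM library did so too.

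**Figure D4:**
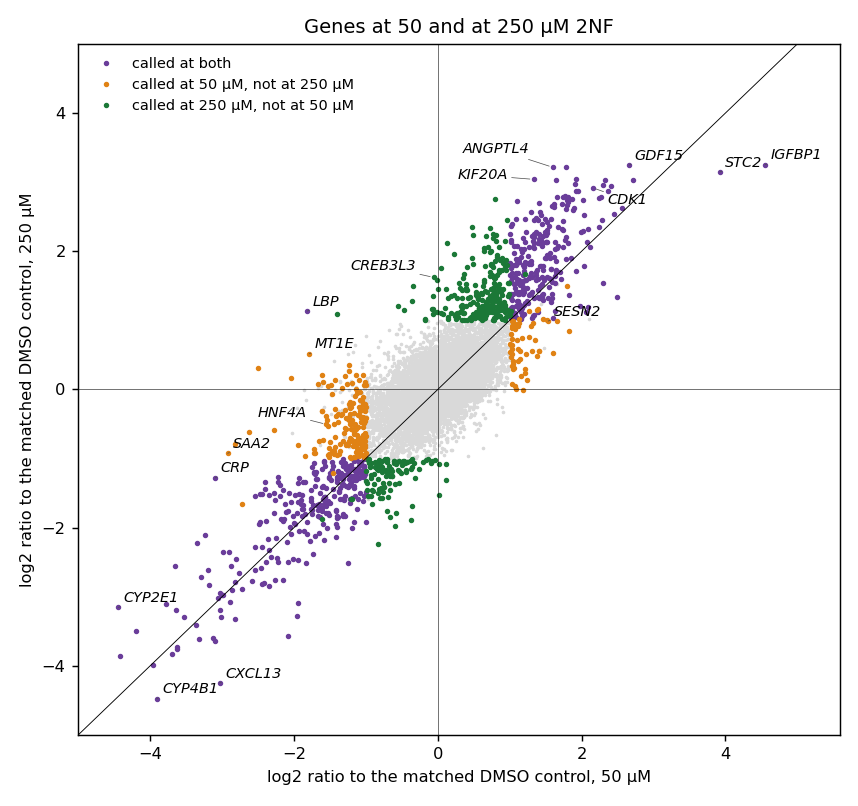
Log2 ratio to the matched DMSO control at 50 µM (horizontal) and at 250 µM (vertical) for the genes read. Both axes share the matched control. Purple, orange and green points are genes called at both concentrations, at 50 but not 250 µM, and at 250 but not 50 µM, the diagonal marks equal ratios, and grey points were called at neither. LBP lies at -1.81 and 1.13, IGFBP1 at 4.55 and 3.25, and KIF20A at 1.33 and 3.04.

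At 10 µM the 8 largest changes, among genes with a mean of at least 100 counts, were in IGFBP5, STC2, CYP1A1, CYP1B1, KRT19, CXCL13, SERPINB2 and CDK1. IGFBP5, which binds insulin-like growth factors, was at 23.6 RPM in the matched control, 10.5, 15.4 and 31.0 RPM in the others and 3.15, 1.88 and 0.959 RPM with 2NF (slope -1.70 ± 0.22 (SE), edgeR trend, adjusted p = 0.000428). CXCL13, a chemokine for B cells, was at 309.7 RPM in the matched control, 192, 239 and 602 RPM in the others and 103, 36.9 and 15.3 RPM with 2NF (slope -1.55 ± 0.17 (SE), edgeR trend, adjusted p = 0.000127). All libraries of 2NF lay below all DMSO controls for both genes, in order of concentration.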

How the data were processed

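Targeted RNA sequencing (AmpliSeq, 1 amplicon per gene) was made by the authors from RNA pooled over 3 cultures per group. The deposited table holds raw counts and RPM (counts that the authors scaled to a common total per library) per amplicon on build hg19, as the labels give it. Dividing the counts by their totals gave back every deposited RPM value to within 0.000538. Of the targets, 20802 were kept and 10 spike-in targets were left out. Totals were 9548911 to 13966635 counts per library.

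Log2 ratios to the matched DMSO control used log2(RPM + 1), computed here from the deposited RPM. With 1 library per concentration these ratios have no test. The concentration trend was fitted to the counts of 7 libraries (3 of 2NF and 4 DMSO controls). It used edgeR 4.0.16 (TMM, filterByExpr, quasi-likelihood test) in R 4.3.3, with Benjamini-Hochberg adjustment at 0.05. The fit was also run on simulated data, in which libraries were drawn independently and without differences between exposure sets. Such data cannot show how the test behaves where exposure sets differ. limma 3.58.1 and DESeq2 1.42.0, other scalings, filters, pseudocounts and references, and leaving out each library were alternatives. The 3 concentrations are not replicates of each other.

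Named genes were index genes of 22 lists, the 4 other genes of each list with the largest change at 250 µM, the 12 highest and 12 lowest at 250 µM, the 8 largest at 10 µM, genes called in opposite directions, and the 6 largest rises called at 50 but not 250 µM. Some genes that this rule selects are not reported here. Members and lists were chosen with earlier results of these data known. Over all genes, counts of those called in the same direction at several concentrations are not given, because the concentrations share a control. Promoter sequences are from RefSeq (GRCh38.p14), and no coordinates were carried between builds.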

Additional observations from a re-analysis of the deposited data

Results flagged for a closer look

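In 4 of the 170 genes examined, 1 of the 4 DMSO controls stood apart from the others by Dixon's criterion, which chance meets in about 1 of 20 groups. MDM2 was at 241 RPM in the ETP control and at 390 to 431 RPM in the others. CCNG1, another p53 target, was at 89.9 RPM in the ETP control and at 146 to 148 RPM in the others. FANCI, of the Fanconi anaemia pathway, was at 3.22 RPM in the CISP control and at 1.78 to 1.97 RPM in the others. PPP1R15A, a phosphatase subunit of the integrated stress response, was at 30.5 RPM in the matched control and at 39.7 to 41.8 RPM in the others. The cause was not tested.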

How the results depend on the processing

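With 1 library per concentration, no call at a single concentration has a replicate check, and genes under about 20 counts could not be read at this depth. No paired test was possible, because each concentration had 1 pooled library and the exposure set of 2NF had 1 DMSO control. The main trend put the 4 DMSO controls together at the lowest step and so did not use the exposure set. With a pseudocount of 0.1 RPM, 143 genes were called higher at 10 µM, and with the mean log2 of the 4 DMSO controls as the reference, 46. A mean of at least 100 counts, which tests fewer genes, left 48 higher and 27 lower at 10 µM, 213 and 296 at 50 µM, and 299 higher at 250 µM. The trend called 320 genes higher and 290 lower with the matched control alone, and 210 to 633 higher and 244 to 677 lower with 1 library left out, fewest without the 250 µM library. With the mean reference, added after the data were seen like the other counts over lists, 3 genes of the AhR battery and 4 of mitosis were higher at 10 µM, and 0 of drug oxidation, secreted proteins and bile acid transport were lower. DNA replication had 14 trend calls with the matched control alone and 8 to 24 with 1 library left out, drug oxidation 2 to 12, and bile acid and transport 5 to 15. Of 116 genes past the trend threshold among the 170 examined one by one, 48 lost the call without the 250 µM library, 15 without the 50 µM library, 4 to 8 without a DMSO control or the 10 µM library, 34 with the matched control alone, and 3 each with DESeq2, limma or log10 concentration. The slopes of CREB3L3 and ICAM1 turned to -0.06 and -0.05 without the 250 µM library, and ran up to 0.49 and 0.51 (without the 50 µM library). Of 510 log2 ratios, 207 moved by over 1 SD of the DMSO controls with the mean reference, 297 without the matched control and 41 with the smaller pseudocount, and none changed sign among called values.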

Other observations

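Genes of lipid handling moved in both directions. ANGPTL4 was at 3.88 to 5.61 RPM in the DMSO controls and 4.78, 13.7 and 44.3 RPM with 2NF (slope 1.00 ± 0.11 (SE), edgeR trend, adjusted p = 9.59e-05), and PLIN2, which coats lipid droplets, at 135 to 197 RPM and 170.4, 283 and 389.9 RPM (adjusted p = 0.00192, 0.115 without the 250 µM library). FABP1, the liver fatty acid-binding protein, was at 117 to 249 RPM in the DMSO controls and 181, 12.6 and 21.2 RPM with 2NF (adjusted p = 0.0101, 0.158 without the 250 µM library). In the list of fatty acid oxidation and PPAR-alpha targets, 3 of 15 genes passed the trend as higher and 2 as lower. Of all genes, 5.28% and 5.52% did so. Sterol synthesis genes were lower at 50 µM in 4 of 17 genes read and at 250 µM in 1. In the trend 7 of 17 passed, all lower. Over all genes, 3.75% and 3.27% were called lower at these concentrations and 5.52% passed the trend as lower. MVK, mevalonate kinase, had log2 ratios of -0.09, -0.47 and -0.78 (adjusted p = 0.00271, 0.112 without the 250 µM library). SQLE, squalene epoxidase, and INSIG1, a sterol sensor, were lower at 50 µM and near the DMSO controls at 250 µM (-0.22, -1.04 and -0.11 and -0.22, -1.22 and -0.35).

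Of 14 genes of cytoskeleton and matrix, 2 were higher and 1 lower at 50 µM and likewise at 250 µM. In the trend 2 passed in each direction. The shares of all genes, higher and lower, were 2.67% and 3.75% at 50 µM and 4.20% and 3.27% at 250 µM. For the trend they were 5.28% and 5.52%. ACTA2, smooth muscle actin and also a p53 target, was at 72.7 to 82.1 RPM in the DMSO controls and 88.5, 152 and 157 RPM with 2NF (edgeR trend, adjusted p = 0.000959). ANKRD1, a YAP target, had log2 ratios of -0.90, -2.09 and -1.76 and CTGF had -0.11, -0.04 and -0.86 (adjusted p = 0.0134 and 0.0120). ANKRD1 and CTGF did not pass without the 250 µM library (0.0545 and 0.31).

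AFB1 and ETP were given in DMSO at other concentrations, and their list medians, each against its own DMSO control, are set beside those of 2NF without a comparison. For AFB1 at 0.25, 1 and 2.5 µM the median log2 ratios were 0.74, 1.16 and 1.75 for mitosis, -0.36, -0.95 and -2.25 for drug oxidation, and 0.33, 0.10 and 0.33 for the AhR battery. For ETP at 0.5, 2.5 and 10 µM they were 0.31, 1.24 and 0.65 for mitosis, 0.18, -0.16 and -0.12 for drug oxidation, and 0.06, 0.00 and -0.13 for the AhR battery. For 2NF the medians of these lists were 1.08, 1.78 and 2.68, then 0.16, -1.21 and -1.31, and 0.74, 1.12 and 0.63.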
